A study of Homo sapiens with 3 samples.

Results

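The nuclear-encoded subunits of the mitochondrial respiratory chain and ATP synthase were examined in PC3 cells with and without USP16 knockdown. Genes were taken by name from the expression table: NDUFA, NDUFB, NDUFC, NDUFS and NDUFV genes with a number, names starting with UQCR, ATP5 or COX4 to COX8, and CYC1, CYCS, SDHA, SDHB, SDHC and SDHD. Pseudogene names were left out. This gave 94 of 59719 names, of which 89 are subunit genes. The other 5 are readthrough, antisense or divergent transcripts that carry a subunit's name. Of the 89, 81 averaged 1 TPM or more and were analysed: 36 of complex I, 4 of complex II, 9 of complex III, 13 of complex IV, 18 of complex V and the electron carrier cytochrome c. The table's own annotation placed 86 of the 94 in the KEGG pathway of oxidative phosphorylation. NDUFAB1, a complex I subunit whose name has no matching pattern, was not among them; its levels were 321 TPM in shCON, 222 TPM with shUSP16#1 and 232 TPM with shUSP16#2.

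PC3 is an androgen-independent human prostate cancer line, and USP16 is a deubiquitinase. RNA-seq covered 1 library of PC3 cells carrying the control hairpin (shCON) and 1 library for each of 2 hairpins against USP16 (shUSP16#1 and shUSP16#2). According to the study's methods, hairpins were placed in a lentiviral vector and PC3 cells were selected with puromycin, which the groups therefore share. With 1 library per condition no difference has a replicate check, and both hairpins are set against the same shCON library, so a shared direction is not independent evidence. Values are TPM, a unit scaled to a fixed sum per library and already divided by transcript length, so levels of different genes can be set side by side. TPM keeps no record of sequencing depth, so no interval is given. Changes are given as log2(TPM + 1) in a hairpin library minus that in shCON, and this pseudocount shrinks the changes of low genes.

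USP16 itself was at 19.92 TPM in shCON, 3.5 TPM with shUSP16#1 and 1.08 TPM with shUSP16#2. The epithelial genes KRT8, KRT18 and EPCAM were at 622 to 748, 778 to 947 and 136 to 274 TPM over the libraries, and VIM, a mesenchymal filament gene also made by PC3, was at 40.5 to 96.4 TPM. EPCAM and VIM were at least 1.5-fold lower in both hairpin libraries, unlike the keratins. The leukocyte and T cell genes PTPRC and CD3E were at 0.14 TPM or less, and KLK3, the gene of prostate-specific antigen, was listed at 0 in the 3 libraries. The stromal collagen gene COL1A1 was at 4.19 TPM in shCON, 10.71 TPM with shUSP16#1 and 4.78 TPM with shUSP16#2. The endothelial gene PECAM1 was at 0.14, 0.72 and 1.28 TPM. The part of these markers in the results was not tested. Over the 13637 genes that averaged 1 TPM or more, the median change was -0.17 with shUSP16#1 and -0.37 with shUSP16#2.

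Complex I takes electrons from NADH and complex II takes them from succinate. Both pass them through ubiquinone to complex III, and cytochrome c carries them on to complex IV, which reduces oxygen. Complexes I, III and IV pump protons across the inner mitochondrial membrane, and complex V, the ATP synthase, uses the gradient to make ATP. Complex II is built from nuclear genes alone, whereas the other complexes also hold subunits made from mitochondrial DNA. NRF1, the ETS factor GABP and YY1 are known regulators of many of these nuclear genes, and c-Myc binds E-box motifs.

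Upstream sequences of 5 genes are shown because these genes lay at the ends of the range described below: CYCS, SDHD and ATP5PB were the subunits lower by 1.5-fold or more in both hairpin libraries, and NDUFA13 and UQCRC1 were among the 3 with the largest changes in the other direction. Each is the 250 bases before the transcription start from RefSeq (GRCh38.p14), written 5′ to 3′ on the gene's strand, with motif matches in capitals. Motifs were searched on both strands. The core of the NRF1 site was searched as GCGCATG, and the palindromic NRF1 site as that core overlapping its own reverse complement by 4 letters. Sites of ETS factors such as GABP were searched as CCGGAAG, sites of YY1 as AAGATGGC, and the E-box bound by c-Myc and related factors as CACGTG.
CYCS, chr7:25125261-25125510, minus strand: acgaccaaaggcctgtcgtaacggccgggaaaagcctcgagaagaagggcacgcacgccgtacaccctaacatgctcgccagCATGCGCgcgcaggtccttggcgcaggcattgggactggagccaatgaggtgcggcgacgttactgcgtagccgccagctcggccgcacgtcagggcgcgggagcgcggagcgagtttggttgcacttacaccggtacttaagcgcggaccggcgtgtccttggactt
SDHD, chr11:112086623-112086872, plus strand: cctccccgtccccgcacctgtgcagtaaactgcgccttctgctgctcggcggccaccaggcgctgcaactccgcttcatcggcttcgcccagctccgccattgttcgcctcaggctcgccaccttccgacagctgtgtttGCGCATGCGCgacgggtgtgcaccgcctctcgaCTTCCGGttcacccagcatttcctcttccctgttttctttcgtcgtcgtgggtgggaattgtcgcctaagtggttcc
ATP5PB, chr1:111449214-111449463, plus strand: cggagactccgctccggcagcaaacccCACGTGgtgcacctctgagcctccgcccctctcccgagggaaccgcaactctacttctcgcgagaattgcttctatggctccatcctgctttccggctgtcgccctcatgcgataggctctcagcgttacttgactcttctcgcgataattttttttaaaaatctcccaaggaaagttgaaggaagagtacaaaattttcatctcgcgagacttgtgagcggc
NDUFA13, chr19:19515975-19516224, plus strand: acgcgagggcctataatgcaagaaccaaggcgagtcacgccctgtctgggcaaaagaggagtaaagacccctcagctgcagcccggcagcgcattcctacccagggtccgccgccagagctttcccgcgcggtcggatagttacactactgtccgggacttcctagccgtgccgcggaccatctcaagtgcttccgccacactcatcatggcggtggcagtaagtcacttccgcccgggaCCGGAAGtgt
UQCRC1, chr3:48609647-48609896, minus strand: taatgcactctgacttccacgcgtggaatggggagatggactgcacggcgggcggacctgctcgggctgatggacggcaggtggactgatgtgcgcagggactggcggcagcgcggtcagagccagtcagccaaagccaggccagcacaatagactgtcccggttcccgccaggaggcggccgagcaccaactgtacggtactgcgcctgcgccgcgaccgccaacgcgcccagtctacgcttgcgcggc
CYCS held 1 NRF1 core match, from 168 to 162 bases before the start. SDHD held the NRF1 palindrome, from 110 to 101 bases before the start, and 1 ETS match from 77 to 71 bases before it. ATP5PB held an E-box from 223 to 218 bases before the start, and NDUFA13 an ETS match from 10 to 4 bases before it. UQCRC1 held none of the 5 motifs in these 250 bases. AAGATGGC matches of ATP5PB and UQCRC1 ran into or lay within the 50 bases after the start, which are not printed.

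RefSeq promoters of 300 bases, from 250 before to 50 after the start, were found for 72 of the 89 subunit genes, 4 of them by an older symbol, with 87 start sites in all. The NRF1 core was present in 20.7% of these 87 promoters and in 4.43% of all 35116 promoters of the table. Its palindrome, which also counts as a core match, was in 4.60% and 1.24%. The ETS letters were in 25.3% against 10.3%, the YY1 letters in 14.9% against 2.89%, and the E-box in 8.05% against 7.26%. The first 4 motifs thus occurred in a larger share of subunit promoters than of all promoters, and the E-box shares differed by under 1 percentage point.
The 16 analysed genes with an NRF1 core had median changes of -0.10 and -0.19 with shUSP16#1 and shUSP16#2, and the 52 without it had 0.00 and -0.06. Beside CYCS and SDHD, NDUFA5 held the NRF1 core, and so did NDUFS7 and COX6A1, which were higher than shCON under both hairpins. The 21 genes with ETS letters had medians of 0.08 and -0.01, against -0.10 and -0.12 in the 47 without. For the 12 genes with YY1 letters the medians were -0.22 and -0.22, and for the 56 without them -0.01 and -0.04. The 7 genes with an E-box had medians of 0.13 and 0.21, against -0.05 and -0.13 in the 61 without. With the GC trend described below subtracted, these 7 ran from -0.35 (ATP5PB) to 0.11 (UQCR11) with shUSP16#1. With shUSP16#2 they ran from -0.51 (ATP5PB) to 0.20 (ATP5MC1). Only UQCR11 with shUSP16#1 and ATP5MC1 with shUSP16#2 were then positive. The overall median is added back in this subtraction, so all genes stand at -0.18 and -0.37 on this scale. UQCR11, NDUFA7, NDUFS7 and NDUFA11 lay above that level with shUSP16#1. UQCR11, ATP5MC1, ATP5ME, NDUFA7 and NDUFS7 did so with shUSP16#2. The motif medians above are without this subtraction.

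Most subunit genes differed little from shCON. In 70 of the 81 (86.4%) both hairpins were within 1.5-fold of shCON, against 47.7% of all 13637 genes. All 81 averaged 20 TPM or more, and among the 4847 genes with such an average the share was 60.6%. The median change of the subunits was -0.06 with shUSP16#1 and -0.13 with shUSP16#2, which is 0.11 and 0.23 above the medians of all genes. The genes that averaged 20 TPM or more had medians of -0.11 and -0.22, closer to the subunits. The SD of the changes across subunits was 0.31 and 0.42, against 0.69 and 0.90 across all genes. Across the 11493 analysed protein-coding genes, the type of all 81 subunits, it was 0.55 and 0.68. Since cells were measured in bulk, less RNA of a gene per cell and fewer cells that make it cannot be told apart.
In direction the subunits were split. Both hairpins were lower than shCON in 37 genes (45.7%, background 57.2%) and higher in 25 (30.9%, background 24.5%), and 19 (23.5%, background 17.4%) went in opposite directions. Relative to the median change of all genes, 49 (60.5%) were above it under both hairpins, against 41.7% of all genes and 49.6% of those that averaged 20 TPM or more. Counted from that median, 1 of 81 was at least 1.5-fold lower under both hairpins (background 11.2%) and 3 were at least 1.5-fold higher (background 9.74%).
Few genes passed a 1.5-fold difference. Under both hairpins 3 of 81 (3.70%) were at least 1.5-fold lower, against 20.8% of all genes and 16.5% of those that averaged 20 TPM or more. None of the 81 was at least 1.5-fold higher under both, against 4.03% of all genes. Under shUSP16#1 alone 3 were lower (background 23.2%) and 1, NDUFA13, was higher (background 8.72%). Under shUSP16#2 alone 10 (12.3%) were lower (background 38.5%) and 0 were higher (background 7.32%). At 2-fold, 1 gene, CYCS, was lower under both hairpins (background 4.60%), and 5 were lower with shUSP16#2 (background 19.5%), namely CYCS, NDUFA5, NDUFS1, ATP5MD and NDUFA12. The member just inside the 1.5-fold limit was ATP5PB, with a smaller change of -0.63, and the one just outside was NDUFA5, with -0.57.

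**Figure D1:**
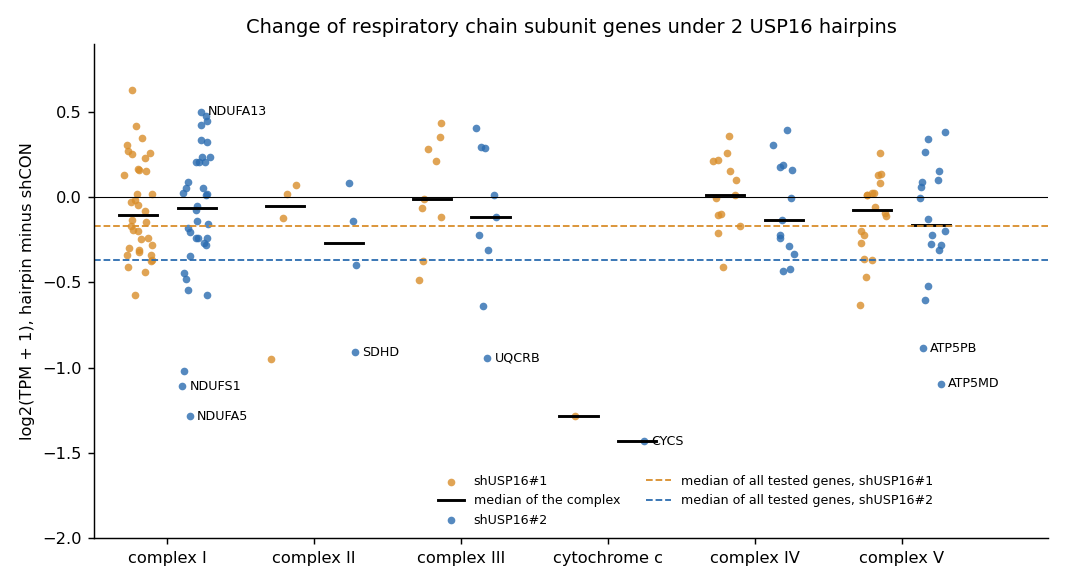
Change of each analysed subunit gene, as log2(TPM + 1), hairpin library minus shCON (y axis), by complex (x axis). Points are genes, black bars are the median of each complex and dashed lines are the medians of all 13637 genes, -0.17 and -0.37. Most points lie near 0, and CYCS at -1.29 and -1.43 lies lowest under each hairpin.

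Summed over the 81 analysed subunit genes, the level was 34235 TPM in shCON, 34620 TPM with shUSP16#1 and 33158 TPM with shUSP16#2. These sums were 3.42%, 3.46% and 3.32% of all TPM. The sum was thus nearly level, at 101% and 96.9% of shCON.
The complexes differed more than their total. Complex I stood at 103% of its shCON sum with shUSP16#1 and 101% with shUSP16#2. Complex II stood at 89.0% and 80.8%, the lowest of the 5. Its sum went from 667 TPM in shCON to 593 TPM and 538 TPM, and SDHD alone from 134.59 TPM to 69.34 TPM and 71.16 TPM. Complex III stood at 107% and 99.6%, and complex IV at 108% and 96.0%. Complex V stood at 92.3% and 93.1%. Complexes II and V were thus below shCON in both hairpin libraries, complex I was above it in both, and complexes III and IV were above it in one and below it in the other.
The median changes over genes, which give each gene equal weight, were -0.11 and -0.06 in complex I, -0.05 and -0.27 in complex II, -0.01 and -0.12 in complex III, 0.01 and -0.13 in complex IV and -0.07 and -0.16 in complex V. Each was above the median of all genes under the same hairpin: relative to that median, the 5 complexes stood at 0.07 and 0.31, 0.12 and 0.10, 0.16 and 0.25, 0.19 and 0.23, and 0.10 and 0.20. The genes that averaged 20 TPM or more had medians of -0.11 and -0.22. Against these, complex I was level with shUSP16#1 and complex II was below with shUSP16#2. The direction of a complex as a whole thus depended on the reference. With the length trend of all genes subtracted the subunits were not above the median of all genes throughout: their medians were -0.21 and -0.26, against -0.17 and -0.37 for all genes. Complexes I and V then stood at -0.26 and -0.26 with shUSP16#1, below all genes, and complex II at -0.37 with shUSP16#2, level with them. In that setting 8 of 81 subunits were at least 1.5-fold lower under both hairpins (background 18.5%).

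Cytochrome c, encoded by CYCS (ENSG00000172115, chr7:25120091-25125361 of GRCh38 in GENCODE 29, minus strand), shuttles electrons from complex III to complex IV and triggers apoptosome assembly when it leaves mitochondria. CYCS was at 148.68 TPM in shCON, 60.41 TPM with shUSP16#1 and 54.48 TPM with shUSP16#2. Both hairpin libraries were well below shCON and close to each other, 2.44-fold and 2.70-fold lower on the TPM + 1 scale (changes of -1.29 and -1.43; measured from the median of all genes, -1.11 and -1.06). Among all tested genes it ranked at percentile 3.14 by mean change and at percentile 88.9 by level.
CYCS has many processed pseudogenes. The 40 annotated ones in the table summed to 1.19 TPM in shCON, 0 TPM with shUSP16#1 and 0.61 TPM with shUSP16#2. How many reads CYCS shares with them was not tested.
Its electron donor is cytochrome c1 of complex III, encoded by CYC1. CYC1 was at 685 TPM in shCON, 795 TPM with shUSP16#1 and 837 TPM with shUSP16#2, higher than shCON in both (changes of 0.21 and 0.29), but with the GC trend of all genes subtracted its changes turned to -0.19 and -0.30. The overall median is added back in that subtraction, so all genes stand there at -0.18 and -0.37, near and below CYC1. The ratio of CYC1 to CYCS was 4.61 in shCON, 13.2 with shUSP16#1 and 15.4 with shUSP16#2.

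Complex II, succinate dehydrogenase, also works in the tricarboxylic acid (TCA) cycle. Its flavoprotein SDHA, which oxidises succinate, was at 82.0 TPM in shCON, 86.1 TPM with shUSP16#1 and 86.8 TPM with shUSP16#2. Its iron-sulphur subunit SDHB was at 187 TPM, 172 TPM and 142 TPM in the same order. SDHC, which with SDHD anchors the enzyme in the membrane, was at 262 TPM, 266 TPM and 238 TPM. These 3 subunits were within 1.5-fold of shCON under both hairpins, as were 47.7% of all genes.
SDHD (ENSG00000204370, chr11:112086773-112120013, plus strand) was at 134.59 TPM in shCON, 69.34 TPM with shUSP16#1 and 71.16 TPM with shUSP16#2. It stood apart from the other 3, 1.93-fold and 1.88-fold lower than shCON on the TPM + 1 scale (changes of -0.95 and -0.91; measured from the median of all genes, -0.78 and -0.54). Its share of the summed TPM of the 4 subunits was 20.2% in shCON, 11.7% with shUSP16#1 and 13.2% with shUSP16#2. The ratio of SDHC to SDHD, the membrane anchors, was 1.95 in shCON, 3.83 and 3.35 under the hairpins.
The 3 annotated SDHD pseudogenes were listed at 0 in shCON and with shUSP16#1 and summed to 0.61 TPM with shUSP16#2. Its exons share 26 bases with TIMM8B on the other strand, which was at 225 TPM in shCON, 250 TPM and 252 TPM under the hairpins. SDHA has 3 pseudogenes with reads of their own, summing to 26.5 TPM in shCON, 17.8 TPM and 17.1 TPM, so its level is uncertain to that extent. Summed with them its mean change was -0.06, against a positive mean change without them.

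**Figure D2:**
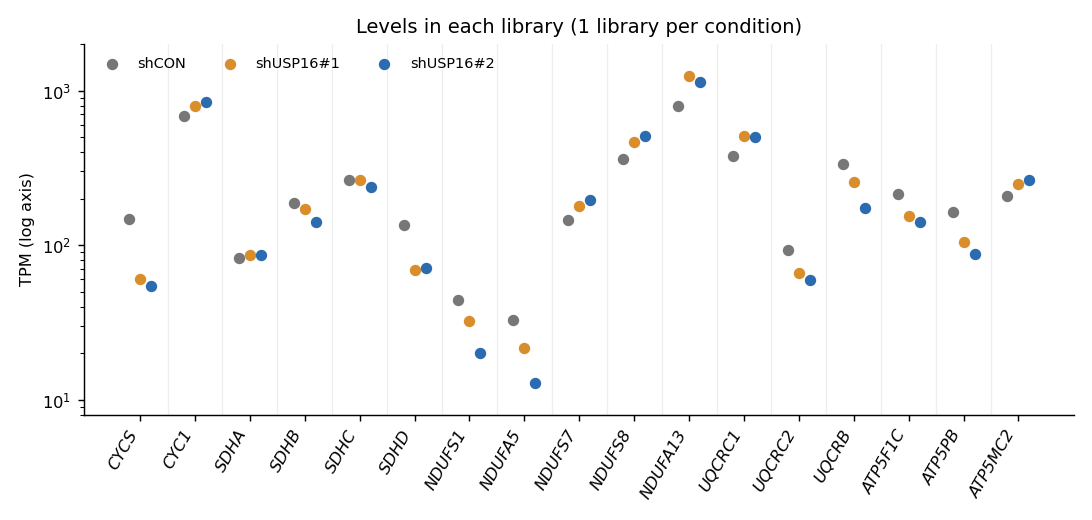
TPM (log axis) of 17 subunit genes in the 3 libraries, 1 point per library and none with a replicate. In CYCS, SDHD, NDUFS1, NDUFA5, UQCRC2, UQCRB, ATP5F1C and ATP5PB both hairpin points lie under the shCON point, and in CYC1, NDUFS7, NDUFS8, NDUFA13, UQCRC1 and ATP5MC2 both lie above it.

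In complex I, the 7 nuclear core subunits, which carry the flavin and iron-sulphur clusters or shape the quinone site, had median changes of 0.16 and 0.24, and the 29 accessory subunits -0.15 and -0.14. Relative to the median of all genes these were 0.33 and 0.61 for the core and 0.02 and 0.23 for the accessory subunits. NDUFS8, which holds iron-sulphur clusters next to the quinone site, was at 363 TPM in shCON, 462 TPM with shUSP16#1 and 505 TPM with shUSP16#2. NDUFS7, which holds the last cluster of the electron path, was at 145 TPM, 180 TPM and 195 TPM. NDUFV1, the subunit that binds NADH and flavin, was at 230 TPM, 256 TPM and 271 TPM. These 3 were higher than shCON under both hairpins, each by less than 1.5-fold, and with the GC trend of all genes subtracted all 3 turned to changes from -0.05 to -0.30. The overall median is added back in that subtraction, so all genes stand there at -0.18 and -0.37. NDUFS8 and NDUFS7 lay above these levels under both hairpins, and NDUFV1 with shUSP16#2 only.
NDUFS1, the large iron-sulphur subunit that works beside NDUFV1, was at 44.36 TPM in shCON, 32.51 TPM with shUSP16#1 and 20.05 TPM with shUSP16#2 (changes of -0.44 and -1.11). NDUFV2, its partner in the same module, was at 499, 421 and 357 TPM (changes of -0.24 and -0.48). The core subunits thus did not move as 1 block: the ratio of NDUFV1 to NDUFS1 was 5.18 in shCON, 7.88 with shUSP16#1 and 13.5 with shUSP16#2. NDUFS3 was near shCON, at 226, 221 and 235 TPM.
Accessory subunits hold the extremes of complex I. NDUFA13, also known as GRIM-19, was at 798.5 TPM in shCON, 1236 TPM with shUSP16#1 and 1132 TPM with shUSP16#2 (changes of 0.63 and 0.50), the highest relative to shCON of the 81 under each hairpin. NDUFA2 was at 148, 198 and 201 TPM (changes of 0.42 and 0.45). NDUFA5, an accessory subunit of the matrix arm, was at 32.74, 21.66 and 12.83 TPM (changes of -0.57 and -1.29). NDUFA12 was at 266, 205 and 131 TPM (changes of -0.37 and -1.02). In NDUFA5, NDUFA12 and NDUFS1 the shUSP16#2 library was lower than the shUSP16#1 library by 0.65 to 0.71 on the log2 scale, and shCON was above both.

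In complex III, UQCRC1 and UQCRC2 are the core proteins that form the matrix side of the dimer. UQCRC1 (ENSG00000010256, chr3:48599002-48610976, minus strand) was at 377 TPM in shCON, 509 TPM with shUSP16#1 and 500 TPM with shUSP16#2 (changes of 0.43 and 0.41). UQCRC2 was at 92.6 TPM, 66.0 TPM and 59.3 TPM (changes of -0.48 and -0.64). These partner subunits thus lay on opposite sides of shCON in both libraries, and their ratio was 4.07 in shCON, 7.72 and 8.44 under the hairpins. UQCRB, which borders the quinone pocket, was at 334 TPM, 257 TPM and 173 TPM (changes of -0.37 and -0.94). UQCR11 was at 147, 188 and 181 TPM (changes of 0.35 and 0.30). UQCRFS1, the Rieske iron-sulphur protein, was at 53.8, 49.6 and 43.3 TPM (changes of -0.12 and -0.31), and its pseudogenes held 9.72 to 10.57 TPM. The retrogene UQCRHL was at 0.18 to 0.21 TPM and was not analysed.

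In complex IV, whose catalytic subunits come from mitochondrial DNA, all 13 analysed nuclear genes were within 1.5-fold of shCON under both hairpins. So were 47.7% of all genes and 60.6% of those that averaged 20 TPM or more. COX5A was lowest relative to shCON where both libraries went the same way, at 318 TPM in shCON, 240 TPM with shUSP16#1 and 237 TPM with shUSP16#2 (changes of -0.41 and -0.42). COX6A1 was at 1762 TPM, 2264 TPM and 1990 TPM (changes of 0.36 and 0.17), and COX7A2 was at 358, 429 and 408 TPM (changes of 0.26 and 0.19). COX8A went in opposite directions, at 1528 TPM in shCON, 1771 TPM with shUSP16#1 and 1129 TPM with shUSP16#2.
Complex IV has ubiquitous and tissue-restricted isoforms. The ubiquitous genes COX4I1 (1256 TPM in shCON, 1396 TPM with shUSP16#1 and 1401 TPM with shUSP16#2), COX6A1 and COX8A made up all of their families here. COX4I2, COX6A2, COX7A1 and COX8C were listed at 0 in the 3 libraries. COX6B1 was at 668, 674 and 609 TPM, beside its testis isoform COX6B2 at 0.25, 0.35 and 0.26 TPM. NDUFA4, a complex IV subunit despite its name, was at 110, 94.5 and 92.7 TPM, and its hypoxia-induced paralog NDUFA4L2 was at 0.59, 0.65 and 1.11 TPM.
One tissue-restricted isoform was present. COX7B2 was at 21.55 TPM in shCON, 25.26 TPM with shUSP16#1 and 21.49 TPM with shUSP16#2, or 12.5%, 15.8% and 15.2% of the summed TPM of COX7B and COX7B2. COX7B was at 151, 135 and 120 TPM. COX7A2L, which joins complexes III and IV in supercomplexes, was at 79.2 TPM, 79.0 TPM and 105 TPM, or 18.1%, 15.6% and 20.4% of the summed COX7A family. The isoform make-up of complex IV thus showed no switch between genes in the 3 libraries, beyond shifts of at most 5 percentage points.

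**Figure D3:**
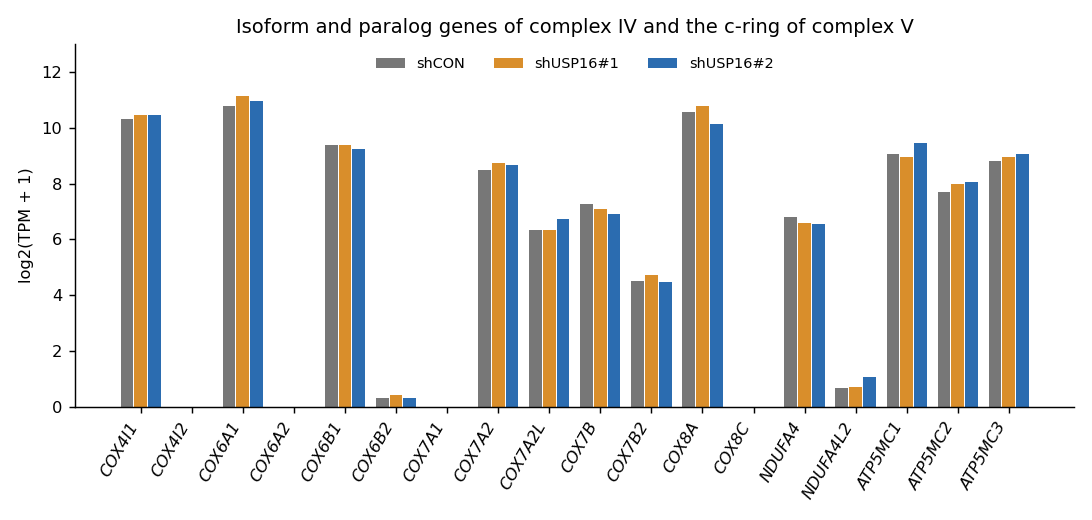
Levels of isoform and paralog genes of complex IV and of the 3 c-ring genes of complex V, as log2(TPM + 1), in the 3 libraries (bars from 0, 1 library each). COX4I2, COX6A2, COX7A1 and COX8C have no bar because they were listed at 0, and COX7B2 stands at 21.49 to 25.26 TPM.

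In complex V, the stalk and the F1 head had lower median changes than the c-ring: -0.36 and -0.40 in the stalk, -0.22 and -0.28 in the F1 head, and 0.14 and 0.34 in the c-ring. Relative to the median of all genes these were -0.19 and -0.03, -0.05 and 0.09, and 0.31 and 0.71, so the F1 head was not below that reference under both hairpins. The peripheral stalk, which holds the F1 head still, is made of ATP5PB, ATP5PD, ATP5PF and ATP5PO. Its summed level was 2076 TPM in shCON, 1652 TPM with shUSP16#1 and 1617 TPM with shUSP16#2. All 4 stalk genes were lower than shCON under both hairpins, as were 57.2% of all genes.
ATP5PB (ENSG00000116459, chr1:111448864-111462773, plus strand), subunit b of the stalk, was at 163 TPM in shCON, 105 TPM with shUSP16#1 and 88.0 TPM with shUSP16#2 (changes of -0.63 and -0.89), 1.55-fold and 1.85-fold lower on the TPM + 1 scale. Its exons share 322 bases with WDR77 on the other strand, which was at 37.0, 25.1 and 26.1 TPM. Whether reads were counted by strand is not given in the sources used here, so reads of the 2 genes may be mixed.
The F1 head carries the catalytic sites. Its catalytic beta subunit ATP5F1B was at 1168 TPM in shCON, 1001 TPM with shUSP16#1 and 943 TPM with shUSP16#2, and the alpha subunit ATP5F1A was at 292, 242 and 241 TPM. ATP5F1C, the gamma subunit that turns inside the head, was at 216, 155 and 142 TPM (changes of -0.47 and -0.60). The summed F1 level stood at 86.6% and 82.9% of shCON.
The rotor ring in the membrane is built from subunit c alone, made by ATP5MC1, ATP5MC2 and ATP5MC3, which encode the same mature protein. ATP5MC2 was at 209 TPM in shCON, 250 TPM with shUSP16#1 and 266 TPM with shUSP16#2 (changes of 0.26 and 0.34). ATP5MC3 was at 446 TPM, 489 TPM and 536 TPM (changes of 0.14 and 0.27). ATP5MC1 was at 536 TPM, 496 TPM and 698 TPM (changes of -0.11 and 0.38). The summed c-ring level stood at 104% and 126% of shCON, on the other side of shCON from the stalk and the F1 head.
ATP5MD, a small membrane subunit also known as DAPIT, differed most between the hairpins of the 81. It was at 585 TPM in shCON, 619 TPM with shUSP16#1 and 274 TPM with shUSP16#2 (changes of 0.08 and -1.09). ATP5IF1, the inhibitor of the enzyme, was at 256, 260 and 267 TPM. The retrogene ATP5MGL was at 0.10 TPM in shCON and listed at 0 under both hairpins.

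The 5 names that are not subunits were low or tied to a neighbour. NDUFC2-KCTD14, a readthrough transcript that shares exons with NDUFC2, was at 36.75 TPM in shCON, 15.27 TPM with shUSP16#1 and 17.86 TPM with shUSP16#2, while NDUFC2 was at 722, 595 and 568 TPM. How reads were split between them cannot be seen in TPM. The antisense transcript NDUFV2-AS1 was at 2.59, 1.59 and 1.88 TPM, NDUFA6-DT at 1.16, 1.24 and 2.86 TPM, NDUFB2-AS1 at 0.29, 0.22 and 0.34 TPM, and ATP5MF-PTCD1 at 0.63, 0.45 and 1.03 TPM.
In all, 37 of the 81 subunit genes share exonic bases with another annotated gene, 20 of them with a gene on the same strand. For NDUFA13 these were AC011448.1, at 2.38 TPM or less in each library, and YJEFN3, at 1.37 TPM or less. Some same-strand neighbours were higher. NDUFA9, at 47.00 TPM in shCON, shares 983 bases with AC005833.1, at 49.57 TPM there. NDUFA7, at 154 TPM in shCON, shares 456 bases with AC010323.1, at 61.49 TPM there. How reads were split between such genes was not tested.

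The order of the changes followed base composition. GC content is the median over a gene's transcripts in GENCODE 29. Across the 81 genes the rank correlation of GC content with the change was 0.59 with shUSP16#1 and 0.70 with shUSP16#2, and across the 13296 genes with a GC value it was 0.54 and 0.64. Genes share libraries and are not replicates, so these are descriptions. The median GC content was 49.2% in the subunits and 50.4% in all genes, so the subunits as a group were not shifted far in GC. Their listed lengths were shorter, with a median of 804 bases against 2651. The rank correlation of length with the change among them was -0.12 and -0.17.
Of the 27 subunit genes lowest in GC, 21 were lower than shCON under both hairpins and 1 was higher, with median changes of -0.24 and -0.44. In the 27 in the middle the medians were -0.06 and -0.16, with 15 lower and 8 higher. Of the 27 highest in GC, 1 was lower and 16 were higher under both hairpins, with medians of 0.15 and 0.21. Across all genes 57.2% were lower and 24.5% higher under both, and shares by GC content were not counted. The medians of all genes also climbed with GC content. They were -0.48 and -0.82 near 43.1% GC, -0.27 and -0.42 near 49.1%, and 0.06 and -0.06 near 57.1%. NDUFA5 (36.6% GC), UQCRB (38.1%), NDUFS1 (43.9%) and ATP5PB (44.3%) lay at the low end, and NDUFA13 (62.0%) and UQCRC1 (58.7%) at the high end.
With the GC trend of all genes subtracted, the subunit changes at each end came closer to 0. The overall median was added back, so all genes stand at -0.18 and -0.37 on this scale. NDUFA13 then stood at 0.24 and -0.01, and UQCRC1 at 0.13 and -0.06. ATP5PB stood at -0.35 and -0.51 and no longer passed 1.5-fold under both hairpins. CYCS (43.3% GC) stood at -0.92 and -0.92 and SDHD (48.9% GC) at -0.86 and -0.86. On this scale these 2 of 81 remained lower by 1.5-fold or more in both libraries, against 12.3% of all genes, and 1 of 81, COX7B2 at 0.64 and 0.60, was at least 1.5-fold higher, against 2.36%. Measured from the -0.18 and -0.37 of all genes, CYCS and SDHD passed 1.5-fold with shUSP16#1 but not with shUSP16#2.
Groups within complexes also came closer together. The complex I core stood at -0.10 and -0.11 after the subtraction and the accessory subunits at -0.08 and -0.10. The stalk stood at -0.07 and -0.04, the F1 head at -0.14 and -0.09 and the c-ring at 0.01 and 0.20. The complexes themselves did not come closer together. Complex I stood at -0.09 and -0.11, complex II at 0.01 and -0.07 and complex III at 0.11 and -0.06. Complex IV stood at 0.26 and 0.24, the highest under each hairpin, and complex V at -0.07 and 0.05.

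**Figure D4:**
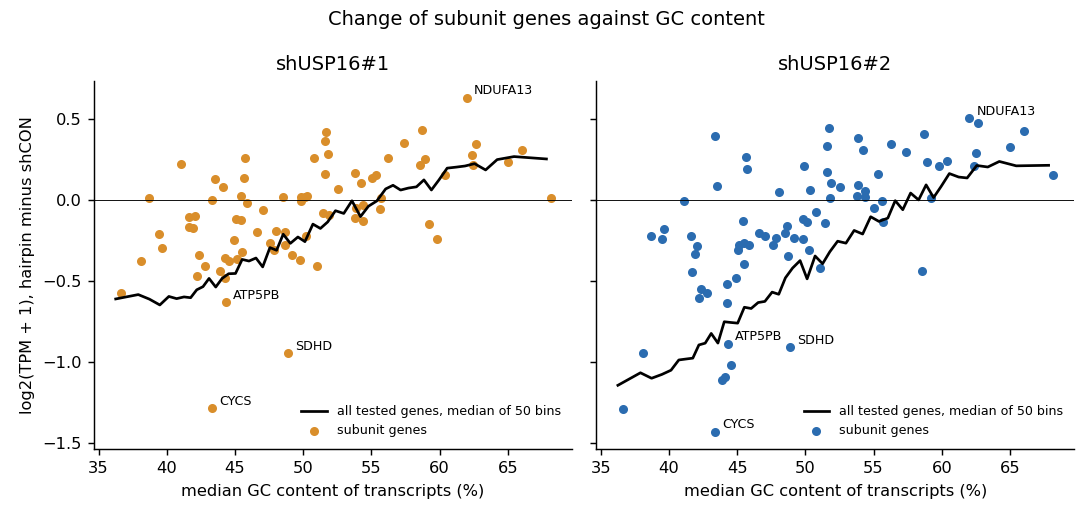
Change as log2(TPM + 1), hairpin minus shCON (y axis), against median GC content of a gene's transcripts in percent (x axis), for shUSP16#1 (left) and shUSP16#2 (right). Points are the 81 subunit genes and the line joins medians of all tested genes in 50 bins of GC content. The points climb with the line, and CYCS and SDHD lie well under it in both panels.

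Other genes of the respiratory chain were described from lists chosen for their function. Assembly factors, which build the complexes without staying in them, had 56 analysed members with median changes of -0.17 and -0.35, close to all genes. Of these, 8 (14.3%, against 20.8% of all genes) were at least 1.5-fold lower under both hairpins and 1 (1.79%, against 4.03%) was higher. LRPPRC, which stabilises mitochondrial mRNAs and is needed for complex IV, was at 34.59 TPM in shCON, 14.92 TPM with shUSP16#1 and 9.69 TPM with shUSP16#2. NDUFAF6, a complex I factor, was at 44.39, 21.94 and 21.73 TPM. SDHAF4, which chaperones SDHA, was the 1 higher factor, at 4.69, 14.95 and 10.74 TPM, and ATPAF2, an F1 assembly factor, was at 9.37, 12.91 and 13.86 TPM.
For complex II the factors and subunits can be set side by side. The 4 factors had medians of 0.32 and 0.03. SDHAF1, needed for SDHB maturation, was at 18.53 TPM in shCON, 27.24 TPM with shUSP16#1 and 23.84 TPM with shUSP16#2. SDHAF3 was at 17.75, 19.28 and 8.27 TPM (changes of 0.11 and -1.02) and SDHAF2, which helps to attach flavin to SDHA, at 73.32, 76.74 and 59.92 TPM (changes of 0.06 and -0.29). All 4 were thus above shCON with shUSP16#1, and 2 of them were below it with shUSP16#2. The complex IV factors, 25 genes, had medians of -0.26 and -0.44, below the 0.01 and -0.13 of the complex IV subunits.
Regulators of mitochondrial gene expression and biogenesis had lower medians than the subunits. Their 20 analysed genes had medians of -0.38 and -0.76, or -0.29 and -0.46 with the GC trend subtracted, and 6 (30.0%, against 20.8% of all genes) were at least 1.5-fold lower under both hairpins with none higher (background 4.03%). TFAM, which packages and transcribes mitochondrial DNA, was at 55.66 TPM in shCON, 23.47 TPM with shUSP16#1 and 15.93 TPM with shUSP16#2. TFB2M, a transcription factor of the same system, was at 59.97, 27.53 and 19.45 TPM. POLRMT, the RNA polymerase of mitochondria, was at 28.85, 37.89 and 39.39 TPM, above shCON in both, and ESRRA, a nuclear receptor that drives subunit genes, was at 86.23, 99.26 and 96.67 TPM. With the GC trend subtracted both turned to changes from -0.04 to -0.45. All genes stand at -0.18 and -0.37 on that scale, and under both hairpins POLRMT lay above these levels and ESRRA below them.
The TCA cycle and pyruvate dehydrogenase list had 18 genes with medians of -0.31 and -0.41, 4 lower (22.2%) and 1 higher (5.56%) by 1.5-fold under both hairpins, shares near the 20.8% and 4.03% of all genes. IDH3A, the catalytic subunit of NAD-dependent isocitrate dehydrogenase, was at 41.26 TPM in shCON, 16.83 TPM with shUSP16#1 and 12.52 TPM with shUSP16#2. Its partner IDH3G was at 60.71, 84.81 and 88.69 TPM, on the other side of shCON. DLAT, of pyruvate dehydrogenase, was at 40.78, 23.3 and 17.11 TPM, and IDH2, the NADP-dependent enzyme, was at 42.68, 67.19 and 68.27 TPM.
The 13 subunits encoded by mitochondrial DNA had medians of 0.02 and -0.37. Their summed level was 5.40% of all TPM in shCON, 5.86% with shUSP16#1 and 4.21% with shUSP16#2, or 108% and 78.0% of shCON. All 13 were lower with shUSP16#2 than with shUSP16#1, as were 73.4% of all tested genes. MT-ND6, the complex I subunit on the light strand, was at 1629, 1262 and 1047 TPM, and MT-ND3 was at 8840, 7138 and 5975 TPM. MT-ATP6 was the 1 gene of 13 (7.69%, background 4.03%) at least 1.5-fold higher under both hairpins, at 232 TPM in shCON, 692 TPM with shUSP16#1 and 477 TPM with shUSP16#2. It overlaps MT-ATP8 in the same transcript, which was at 7994, 7827 and 5971 TPM, so its level depends on how reads were split.

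**Figure D5:**
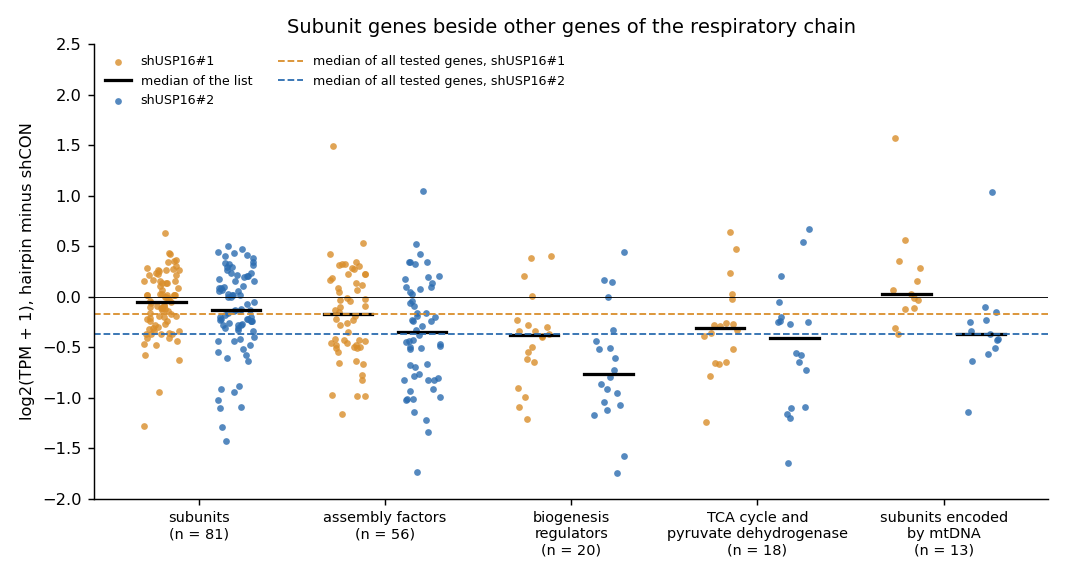
Change as log2(TPM + 1), hairpin minus shCON (y axis), of the 81 nuclear subunit genes beside assembly factors (56), regulators of mitochondrial biogenesis (20), the TCA cycle with pyruvate dehydrogenase (18) and the 13 subunits encoded by mitochondrial DNA. Points are genes, black bars are medians and dashed lines are the medians of all tested genes. The nuclear subunits have medians of -0.06 and -0.13 and the regulators -0.38 and -0.76.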

How the data were processed

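Total RNA of 3 PC3 libraries was sequenced by Majorbio after Trizol extraction and an Illumina TruSeq RNA kit. TPM values of 60930 genes, to 2 decimals, were deposited by the authors as 1 table from the Majorbio Cloud Platform. The submitters' processing notes name CASAVA, HISAT2 and hg19 without their roles. The quantification tool and annotation are not given in the sources used here. Identifiers of 58516 genes, and of all 94 members, matched GENCODE 29, from which GC content and GRCh38 coordinates were taken; no coordinates from the table were used. There were 3 further columns that repeat others, which were not used. Depth per library is unknown.

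Repeated symbols (1211 entries, 0 among the members) were reduced to the entry with the highest mean, and genes that averaged 1 TPM or more were analysed. Changes are log2(TPM + 1), hairpin minus shCON. No test was run, since each condition had 1 library. GC and length trends were removed by subtracting medians of 50 bins and adding the overall median. Procedures were tested on simulated data.

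Members and lists were chosen with earlier results of these data known. Genes named by rule were USP16, CYCS, CYC1, the SDH genes, the 2 lowest and 2 highest of each complex relative to shCON, isoform pairs, c-ring genes, NDUFS1, NDUFV1, UQCRC1, UQCRFS1, ATP5F1A and ATP5F1B, and the 2 lowest and 2 highest of each other list. Other names, the role groups, the set of genes averaging 20 TPM or more, 2 alternatives (pseudogenes summed, genes under 200 bases left out) and the check for overlapping genes were chosen after seeing the data. Values of some genes are not reported here. The tools were matplotlib 3.10.9, scipy 1.17.1, pandas 2.3.3, numpy 2.4.6 and Python 3.11.15.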

Additional observations from a re-analysis of the deposited data

How the results depend on the processing

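No paired analysis was possible because the groups hold 1 library each. Depth is unknown, so counting error could not be set beside any value. Values here average the hairpins' medians, and a move is judged against the SD of the hairpin values, which is not replicate error. The median change of all subunits was -0.10, with -0.08, -0.16, -0.06, -0.06 and -0.12 in complexes I to V. Measured from the median of all genes these became 0.17 overall and 0.19, 0.11, 0.21, 0.21 and 0.15, and the counts at least 1.5-fold lower and higher under both hairpins went from 3 and 0 to 1 (CYCS; 11.2% of all genes) and 3 (NDUFA13, NDUFA2 and UQCRC1; 9.74% of all genes). With the GC trend removed, complexes III, IV and V stood at 0.028, 0.25 and -0.0085, and 1 gene was higher. With the length trend removed the subunits stood at -0.24, complexes I, III, IV and V at -0.25, -0.21, -0.22 and -0.24, and 8 genes were lower (18.5% of all genes). A 2-fold limit left 1 gene lower. With each hairpin alone the overall median ranged from -0.13 to -0.06, complex I from -0.11 to -0.06, II from -0.27 to -0.05, III from -0.12 to -0.01, IV from -0.13 to 0.01 and V from -0.16 to -0.07, the summed level from 97.1% to 101% of shCON, the lower count from 3 to 10 (10 with shUSP16#2) and the higher count from 0 to 1 (1 with shUSP16#1). Subtracting the GC trend and adding the overall median back turned the sign of the mean change of 12 of 49 named genes, centring 8, the length trend 6, and shUSP16#1 or shUSP16#2 alone 5 or 1. Since the GC and length settings add that median back, these signs are not signs against genes of like GC content or length. A pseudocount of 0.1, other minimums and rescaling to protein-coding genes turned none of them, and summing pseudogenes turned 1, SDHA. Apart from what these settings subtract, the cause of a move was not tested.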
